A study of Homo sapiens with 27 samples.

Results

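The interferon-stimulated genes are the genes that cells switch on when an interferon binds its receptor. They were taken as a list of 37 named genes, found by symbol among the 55882 gene symbols of the count tables, and all 37 were present there. They were measured by RNA-seq of polyadenylated RNA from U2OS, a human osteosarcoma cell line, in 27 libraries. The control line, called WT in the sample titles, carried a blank pLKO.1 vector by the treatment protocol of the labels, and MMP2sh1 and MMP2sh2 were stable lines that each carried a different pLKO.1 short hairpin RNA against MMP2, the gene of matrix metalloproteinase 2. By these sources no library here came from cells without a vector. Cells were plated at low density and harvested subconfluent at day −2, confluent at day 0 and overconfluent at day +2, with 3 independent libraries for each line and day. Each hairpin was studied in a single stable line, so that a hairpin and the line that carries it cannot be told apart.

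In the textbook pathway, RNA sensors such as RIG-I (DDX58) and MDA5 (IFIH1) detect viral RNA and cause the cell to make interferon. Interferon binds receptors at the cell surface, the kinases JAK1 and TYK2 phosphorylate STAT2, and this joins IRF9 in a complex that binds the interferon-stimulated response element (ISRE) in the promoters of its target genes. Many targets block steps of viral growth, and sensors, STAT2 and IRF9 are themselves targets. Double-stranded RNA can start this pathway, which is why interferon-stimulated genes are often checked in cells that carry short hairpin RNAs.

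The promoter windows of the list were searched for the ISRE and for other sequence elements. The list was made of genes that interferon switches on, so a high share with the ISRE is not an independent result. Of the 37 genes, 29 had a promoter window in the RefSeq table (GRCh38.p14, 250 bases before to 50 bases after a start). IFIT2, OASL, TRIM22, OAS2, MX2, USP18, DHX58 and IRF7 had none. The ISRE core, searched on both strands as GAAA, any 2 bases and a further GAAA, was found in 19 of the 29 genes (65.5%) and in 4.38% of all 27305 genes with a window. The GAS core, the element of the response to interferon gamma, was searched as TTCNNNGAA, which is its own reverse complement, and was found in 9 of the 29 genes (31.0%) against 9.38% of all genes. The TATA box, searched as TATAAA on both strands, stood in 4 of the 29 (13.8%) and in 14.0% of all genes. A match is a run of letters and does not show that a factor binds there. The sites below are RefSeq sequence, written 5′ to 3′ in the direction of the motif, with the ISRE core in capitals (2 overlapping cores in the case of BST2 and ISG15). They were placed on GRCh37 by their only exact match in the gene and its flanks, and the rest of the genome was not searched. The first 9 belong to genes whose transcripts rose in all 3 lines as the cultures became dense.
IFIT1, chr10:91152269-91152294, minus strand: aacctaggGAAACCGAAAggggaaag
IFIT3, chr10:91092227-91092252, minus strand: ggggaaagGAAAGTGAAActgatgga
IFI44, chr1:79115448-79115473, minus strand: agagaaagGAAACTGAAActcagtgt
IFI6, chr1:27998779-27998804, minus strand: agagtgcaGAAATAGAAActccgaca
ISG20, chr15:89182170-89182195, plus strand: acaaactaGAAACTGAAAcagggtcg
BST2, chr19:17516547-17516576, minus strand: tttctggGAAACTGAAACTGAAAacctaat
PARP14, chr3:122399649-122399674, plus strand: caggaaacGAAAGCGAAAgagtcaaa
SAMD9, chr7:92747411-92747436, minus strand: tgagaaatGAAACTGAAAccaaacct
IFIH1, chr2:163175198-163175223, minus strand: agagaatcGAAACAGAAAccaaagtc
The next 6 hold the same core at genes that were not found to rise in all 3 lines. ISG15 rose in the control line alone among the calls, IFIT5 was called in no line and OAS3 fell in all 3 lines. RSAD2, HERC5 and EPSTI1 had too few reads for this test.
ISG15, chr1:948757-948786, plus strand: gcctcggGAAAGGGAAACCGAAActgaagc
IFIT5, chr10:91174272-91174297, minus strand: aagcttcaGAAACCGAAActtaatag
OAS3, chr12:113376128-113376153, plus strand: aaagaaacGAAACTGAAAgcagggaa
RSAD2, chr2:7017755-7017780, minus strand: ccacatgtGAAACTGAAAgttgaaac
HERC5, chr4:89378188-89378213, minus strand: ctccagtgGAAAACGAAAcataatgt
EPSTI1, chr13:43566410-43566435, minus strand: gattctgaGAAACCGAAActcagctg
In the GENCODE annotation of GRCh37, the printed sites of IFIT3, ISG20, OAS3 and RSAD2 lie in an annotated exon, but in none of the canonical transcript. That of ISG15 lies in an intron within the annotated span of the gene, and the others lie upstream of the gene. The core was found in 11 of the 15 genes with a window that rose in all 3 lines and in 8 of the other 14.

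The libraries held 33580129 to 59374327 reads on genes (median 40075178), of which the 37 genes took 0.0398% to 0.0733%, or 15068 to 29140 reads. A count of 0 in a library allows at most 3 reads, which is 0.0505 to 0.0893 CPM (the count scaled to the library's reads on genes), and this limit covers counting error only. MMP2 itself was at 232 ± 14.2, 325 ± 6.97 and 490 ± 8.504 CPM (mean ± SD, n = 3) at days −2, 0 and +2 in the control. It was lower over all 3 days by a log2 fold change of −2.44 ± 0.05 (± standard error) in MMP2sh1 and −0.85 ± 0.04 in MMP2sh2, so that both lines matched their labels and the reduction was stronger in MMP2sh1. Of the markers of the osteoblast and mesenchymal lineage, COL1A1, SPARC, VIM and RUNX2 were present in every library, at 1108 reads or more, while SP7, TWIST1 and COL1A2 stayed at 28 reads or fewer. The defining lymphocyte and macrophage markers CD3E and LYZ had at most 1 and 6 reads in any library, and the pan-leukocyte marker PTPRC had 1 to 59. Marker levels also moved between the groups. From day −2 to day +2, 2 of the 6 tested osteoblast and mesenchymal markers rose and 4 fell in the control, with 2 and 2 of 7 in MMP2sh1 and 2 and 3 of 6 in MMP2sh2, and their summed level of 3280 to 3970 CPM in the other groups stood at 4270 to 4360 CPM in MMP2sh1 at day +2, where 5 of 6 were higher than in the control. Of 6 epithelial markers 4 were tested over the expansion, and 3 fell in the control, 4 in MMP2sh1 and 2 in MMP2sh2. At day −2 their summed level was 489 to 529 CPM in the control, 694 to 759 in MMP2sh1 and 605 to 690 in MMP2sh2. At day +2 it was 363 to 388 CPM in the control, 397 to 410 in MMP2sh1 and 397 to 399 in MMP2sh2. Nearly all of it was the keratin genes KRT8 and KRT18, while EPCAM had 111 to 315 reads and CDH1, KRT19 and ESRP1 at most 97, 10 and 22. The part of these changes in the results that follow was not tested.

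BST2, the membrane protein tetherin that holds budding viruses on the cell, had the highest mean level per length of the interferon-stimulated genes, at 45.2 CPM per kb of its canonical transcript over all libraries. IFI6, a small membrane protein, stood at 31.6 and ISG15, a ubiquitin-like protein that is joined to other proteins, at 28.6 CPM per kb. BST2 was the highest in 8 of the 9 groups, and in MMP2sh2 at day −2 it was at 28.6 CPM per kb (libraries 27.4 to 29.5) beside 30.4 for ISG15 (26.0 to 37.0), so that the ranges overlapped. The order of IFI6 and ISG15 depended on the day, since the mean of ISG15 was above that of IFI6 in all 6 groups of days −2 and 0 and below it in the 3 groups of day +2. STAT2 was at 15.3, PARP9 at 13.6, IFI44 at 11.8 and PARP14 at 11.6 CPM per kb, and the ranges of the last 3 over the 9 groups overlapped. At the other end, HERC5, the ligase that attaches ISG15, had 0 reads in 25 of 27 libraries and never more than 1. EPSTI1 was at 0 reads in 25 libraries (highest 4), XAF1 in 16 (highest 8) and RSAD2, the antiviral enzyme viperin, in 8 (highest 23). HERC5, XAF1 and EPSTI1 had too few reads for a test in any comparison, so that 34 of the 37 genes were tested at least once. OAS2 reached 49 reads, IFI35 31, DHX58 34 and IFI27 52 reads at most, and fold changes of these genes are imprecise.

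Reads that fall on exons of several genes were not counted to any of them in these tables. In the GENCODE annotation, 93.05% of the exon bases of IRF9, 96.61% of those of DDX58 and 74.19% of those of XAF1 are shared with another gene. The counts may have been made with another annotation, so that the part of this overlap in the low level of IRF9, 0.668 CPM per kb against 15.3 for its partner STAT2, was not tested.

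**Figure D1:**
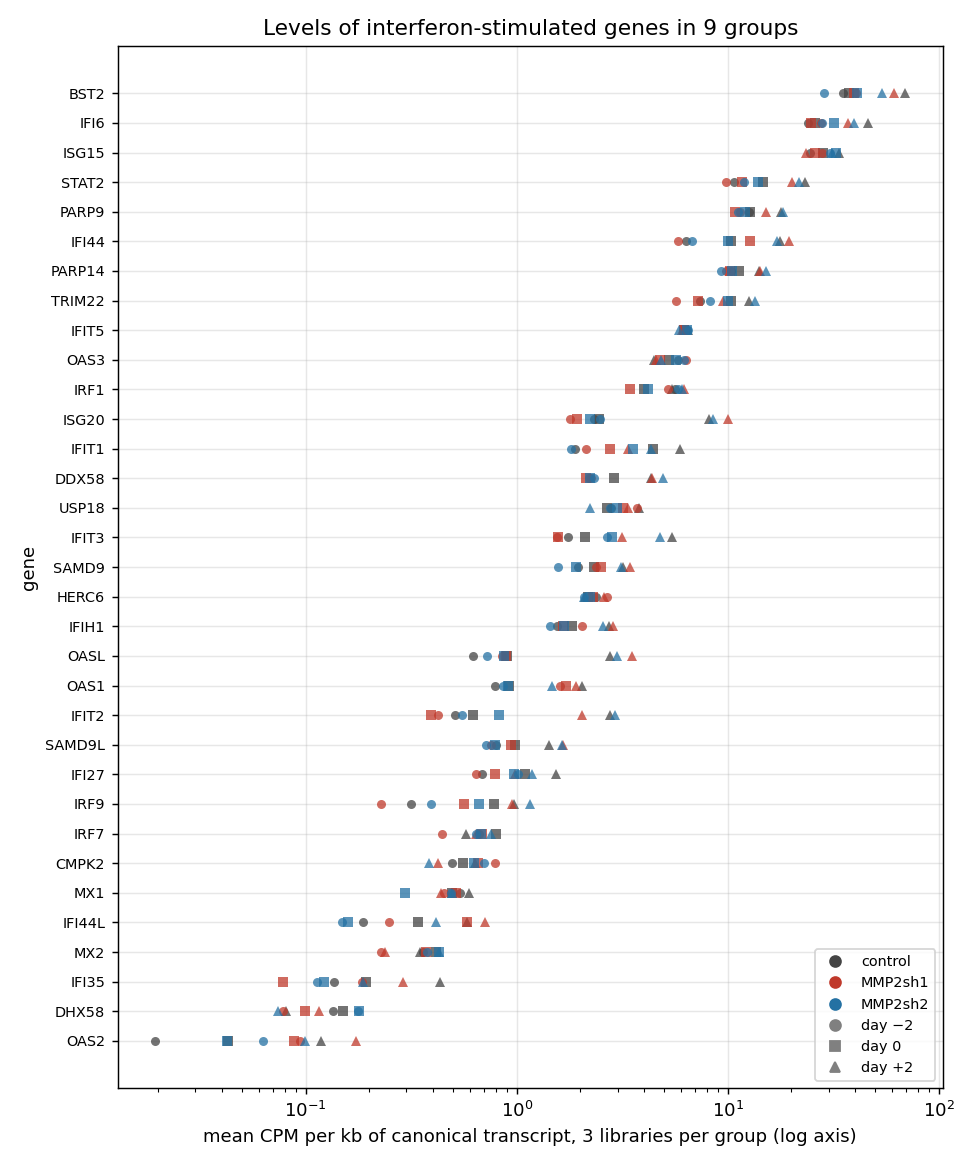
Mean CPM per kb of canonical transcript (log axis) of 33 interferon-stimulated genes in the 9 groups, 3 libraries each, with the line shown by colour and the day by shape. HERC5, EPSTI1, XAF1 and RSAD2, which were at 0 in 8 or more libraries, are not drawn, and the triangles of day +2 lie to the right of the circles of day −2 for most genes, with BST2 highest at a mean of 45.2.

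The first comparison asked how the interferon-stimulated genes changed as each culture grew from subconfluence to overconfluence. Most of those with enough reads rose. In the control, 23 of 32 tested genes rose from day −2 to day +2 and 1 fell, against 28.1% of all tested genes that rose and 28.6% that fell (56.8% called). In MMP2sh1 19 of 33 rose and 2 fell, beside 27.3% and 27.7% of all genes (54.9% called). In MMP2sh2 19 of 32 rose and 2 fell, beside 27.7% and 27.1% of all genes (54.7% called). The median log2 fold change of the tested members was 0.83 in the control, 0.58 in MMP2sh1 and 0.71 in MMP2sh2, where the medians over all genes were 0.03, 0.04 and 0.05. A call here is a p under 0.05 by the quasi-likelihood test of edgeR, after Benjamini-Hochberg correction over all genes tested. In each of the 3 lines the same 18 genes rose and 1, OAS3, fell. The share of all genes that rose or fell in all 3 lines was not computed, so these counts have no background beside them. All values are totals over a culture, in which a large change in few cells and a small change in many cannot be told apart.

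The RNA sensors that detect viral RNA in the cytoplasm rose, apart from the rarest. DDX58 rose by a log2 fold change of 0.98 ± 0.10 in the control, 0.95 ± 0.11 in MMP2sh1 and 1.09 ± 0.11 in MMP2sh2, and IFIH1 by 0.83 ± 0.14 in the control, 0.47 ± 0.13 in MMP2sh1 and 0.85 ± 0.15 in MMP2sh2. DHX58, which encodes the sensor LGP2 that modulates the other sensors, was at 3 to 34 reads and was not called in any line.

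Of the transcription factors, STAT2 and IRF9, which act in the same complex, rose in all 3 lines. STAT2 stood at 47.3, 49.1 and 45.2 CPM at day −2, 64.98, 64.03 and 65.2 at day 0 and 105, 101 and 101 at day +2 in the control. For STAT2, MMP2sh1 gave 40.3, 43.4 and 46.4 CPM at day −2, 49.9, 49.6 and 54.4 at day 0 and 90.1, 83.9 and 91.2 at day +2. MMP2sh2 gave 51.3, 51.1 and 54.8 CPM of STAT2 at day −2, 61.1, 63.5 and 58.1 at day 0 and 97.4, 95.6 and 92.6 at day +2. In each line the 3 libraries of day +2 lay above all those of day 0, and these above all those of day −2. The log2 fold change of STAT2 from day −2 to day +2 was 1.12 ± 0.06 in the control, 1.02 ± 0.07 in MMP2sh1 and 0.87 ± 0.07 in MMP2sh2 (adjusted p = 1.23e-15, 2.29e-11 and 8.8e-13). IRF9 stood at 0.398, 0.782 and 0.351 CPM at day −2, 1.06, 1.59 and 1.17 at day 0 and 1.56, 1.57 and 1.62 at day +2 in the control. For IRF9, MMP2sh1 gave 0.433, 0.474 and 0.195 CPM at day −2, 0.513, 1.48 and 0.743 at day 0 and 1.19, 1.79 and 1.65 at day +2. MMP2sh2 gave 0.699, 0.508 and 0.708 CPM of IRF9 at day −2, 1.09, 1.37 and 0.768 at day 0 and 1.74, 2.05 and 1.82 at day +2. IRF9 thus moved at low counts, 8 to 87 reads per library, and the libraries of day −2 and day +2 did not overlap in any line. Its log2 fold change was 1.63 ± 0.40 in the control, 2.06 ± 0.45 in MMP2sh1 and 1.56 ± 0.36 in MMP2sh2 (adjusted p = 0.000981, 0.000444 and 0.000448). IRF1, an immediate target of interferon gamma signalling, was called in MMP2sh1 alone, at 0.24 ± 0.10 (adjusted p = 0.0455), and was lowest at day 0 in all 3 lines. IRF7, which drives the genes of interferon alpha, was not called in any line.

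In the IFIT family, whose proteins bind viral RNA and block its translation, IFIT1, IFIT2 and IFIT3 rose and IFIT5 did not pass the test in any line. IFIT2 stood at 1.402, 1.49 and 2.28 CPM at day −2, 2.51, 1.998 and 1.803 at day 0 and 8.86, 10.2 and 9.19 at day +2 in the control. For IFIT2, MMP2sh1 gave 1.22, 1.06 and 2.05 CPM at day −2, 1.92, 1.13 and 0.921 at day 0 and 8.11, 6.42 and 6.204 at day +2. MMP2sh2 gave 1.25, 1.87 and 2.49 CPM of IFIT2 at day −2, 3.47, 1.82 and 3.099 at day 0 and 10.5, 8.3996 and 10.7 at day +2. Its level at day 0 overlapped that at day −2 in each line, and day +2 stood clear of both. IFIT2 had the largest mean change of all members over the 3 lines, with log2 fold changes of 2.48 ± 0.18 in the control, 2.26 ± 0.24 in MMP2sh1 and 2.41 ± 0.19 in MMP2sh2 (adjusted p = 5.99e-12, 2.1e-08 and 3.29e-12). IFIT3 stood at 3.88, 4.36 and 4.33 CPM at day −2, 5.07, 4.19 and 5.85 at day 0 and 12.4, 12.02 and 14.6 at day +2 in the control. For IFIT3, MMP2sh1 gave 4.25, 2.63 and 4.25 CPM at day −2, 3.902, 3.104 and 4.25 at day 0 and 7.82, 6.78 and 8.097 at day +2. MMP2sh2 gave 5.95, 7.07 and 6.18 CPM of IFIT3 at day −2, 6.29, 7.32 and 6.596 at day 0 and 12.5, 10.3 and 11.3 at day +2. IFIT3 also rose after confluence in all 3 lines, by 1.65 ± 0.13 in the control, 1.03 ± 0.19 in MMP2sh1 and 0.83 ± 0.13 in MMP2sh2 from day −2 to day +2. IFIT1 stood at 7.82, 9.26 and 7.31 CPM at day −2, 20.8, 17.9 and 18.2 at day 0 and 26.2, 24.6 and 25.8 at day +2 in the control. For IFIT1, MMP2sh1 gave 10.4, 9.27 and 7.81 CPM at day −2, 13.96, 11.01 and 10.5 at day 0 and 12.4, 14.5 and 16.5 at day +2. MMP2sh2 gave 9.35, 7.42 and 6.63 CPM of IFIT1 at day −2, 14.3, 14.5 and 16.9 at day 0 and 17.2, 16.4 and 22.03 at day +2. IFIT1 differed from its neighbours in that it already stood higher at day 0 than at day −2, without overlap, in each line. Its log2 fold change to day +2 was 1.65 ± 0.10 in the control, 0.66 ± 0.13 in MMP2sh1 and 1.25 ± 0.13 in MMP2sh2. IFIT5 changed by 0.03, −0.04 and −0.15 on the log2 scale.

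The OAS enzymes make oligoadenylates when they bind double-stranded RNA, and their genes moved in opposite directions. OASL, a relative without that enzymatic activity, rose most. OASL stood at 1.64, 2.13 and 2.28 CPM at day −2, 2.99, 2.49 and 3.34 at day 0 and 7.61, 9.397 and 10.02 at day +2 in the control. For OASL, MMP2sh1 gave 2.68, 2.48 and 3.198 CPM at day −2, 2.695, 3.28 and 2.79 at day 0 and 11.2, 11.4 and 12.001 at day +2. MMP2sh2 gave 1.95, 3.19 and 1.93 CPM of OASL at day −2, 3.02, 2.82 and 2.65 at day 0 and 9.68, 9.22 and 10.4 at day +2. The libraries of day +2 were far above those of both earlier days. Days −2 and 0 overlapped in each hairpin line, and in the control day 0 lay above day −2 without overlap. The log2 fold change of OASL was 2.18 ± 0.18 in the control, 2.05 ± 0.16 in MMP2sh1 and 2.04 ± 0.18 in MMP2sh2 (adjusted p = 3.65e-11, 8.72e-11 and 2.92e-11). OAS1 stood at 1.52, 1.09 and 1.26 CPM at day −2, 1.58, 1.68 and 1.24 at day 0 and 3.15, 2.895 and 3.94 at day +2 in the control. For OAS1, MMP2sh1 gave 2.19, 2.09 and 3.52 CPM at day −2, 2.43, 2.69 and 3.297 at day 0 and 3.03, 3.38 and 2.95 at day +2. MMP2sh2 gave 1.57, 1.46 and 1.16 CPM of OAS1 at day −2, 1.26, 1.23 and 1.96 at day 0 and 2.86, 2.49 and 1.84 at day +2. OAS1 rose in the control by 1.36 ± 0.25 and in MMP2sh2 by 0.78 ± 0.29, and in MMP2sh1, where day −2 was already high, the change was 0.26 ± 0.25 (adjusted p = 0.393). OAS3 fell, with log2 fold changes of −0.37 ± 0.07 in the control, −0.47 ± 0.08 in MMP2sh1 and −0.36 ± 0.08 in MMP2sh2 (adjusted p = 6.93e-05, 3.68e-05 and 0.000237). OAS2, with 0 to 49 reads, was not called in either hairpin line and was not tested in the control.

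The antiviral GTPases MX1 and MX2, at 18 to 100 and 20 to 91 reads, were not called in any line, with log2 fold changes between −0.05 and 0.21. ISG15 and its enzymes showed no common rise. ISG15 stood at 15.3, 14.97 and 16.6 CPM at day −2, 19.03, 16.8 and 18.2 at day 0 and 18.4, 22.1 and 23.5 at day +2 in the control. For ISG15, MMP2sh1 gave 15.9, 18.6 and 19.1 CPM at day −2, 14.96, 13.5 and 20.8 at day 0 and 17.1, 13.2 and 14.5 at day +2. MMP2sh2 gave 16.6, 17.9 and 23.6 CPM of ISG15 at day −2, 19.6, 21.05 and 21.7 at day 0 and 21.2, 19.3 and 18.9 at day +2. ISG15 rose in the control, by 0.46 ± 0.10 (adjusted p = 0.00019), and was at −0.26 ± 0.11 (adjusted p = 0.0535) in MMP2sh1 and 0.05 ± 0.11 in MMP2sh2. USP18 stood at 4.79, 6.02 and 4.77 CPM at day −2, 5.002, 5.57 and 4.39 at day 0 and 6.27, 6.67 and 8.15 at day +2 in the control. For USP18, MMP2sh1 gave 6.79, 7.42 and 6.54 CPM at day −2, 6.02, 4.95 and 6.83 at day 0 and 6.74, 6.12 and 5.89 at day +2. MMP2sh2 gave 4.92, 5.45 and 4.99 CPM of USP18 at day −2, 5.26, 5.67 and 5.67 at day 0 and 4.62, 3.76 and 3.94 at day +2. USP18, which removes ISG15 from proteins and restrains the interferon receptor, was likewise called in the control alone, at 0.45 ± 0.15 (adjusted p = 0.0161). HERC6, a relative of HERC5, changed by −0.16, −0.05 and 0.01 and was not called.

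Among the other antiviral effectors 5 genes rose in every line. ISG20 stood at 3.27, 4.55 and 3.22 CPM at day −2, 4.31, 3.35 and 3.996 at day 0 and 12.3, 15.04 and 11.4 at day +2 in the control. For ISG20, MMP2sh1 gave 3.03, 3.105 and 2.37 CPM at day −2, 2.63, 2.86 and 3.68 at day 0 and 15.5, 15.4 and 16.96 at day +2. MMP2sh2 gave 4.48, 3.29 and 4.05 CPM of ISG20 at day −2, 3.05, 4.64 and 2.86 at day 0 and 13.5, 13.4 and 13.4 at day +2. Its 3 libraries of day +2 stood above every earlier library of the same line. The log2 fold change of ISG20, an exonuclease that degrades RNA, was 1.82 ± 0.15 in the control, 2.49 ± 0.14 in MMP2sh1 and 1.78 ± 0.14 in MMP2sh2. BST2 stood at 36.7, 31.4 and 37.2 CPM at day −2, 39.8, 34.5 and 38.3 at day 0 and 64.1, 69.7 and 73.9 at day +2 in the control. For BST2, MMP2sh1 gave 34.4, 40.9 and 46.2 CPM at day −2, 39.4, 37.2 and 42.4 at day 0 and 65.3, 63.8 and 55.7 at day +2. MMP2sh2 gave 29.5, 27.4 and 29.01 CPM of BST2 at day −2, 39.2, 43.7 and 39.9 at day 0 and 57.4, 56.5 and 47.8 at day +2. BST2 rose by 0.99 ± 0.07 in the control, 0.60 ± 0.09 in MMP2sh1 and 0.92 ± 0.08 in MMP2sh2, and all of its day +2 libraries were above those of day 0. TRIM22 stood at 21.6, 19.8 and 22.3 CPM at day −2, 31.3, 30.2 and 28.0000 at day 0 and 36.9, 37.8 and 34.8 at day +2 in the control. For TRIM22, MMP2sh1 gave 16.7, 17.7 and 14.9 CPM at day −2, 20.9, 21.6 and 20.2 at day 0 and 27.9, 24.4 and 29.4 at day +2. MMP2sh2 gave 22.3, 25.2 and 24.1 CPM of TRIM22 at day −2, 29.9, 29.7 and 27.3 at day 0 and 38.3, 39.1 and 39.5 at day +2. TRIM22, a ubiquitin ligase, rose at both steps without overlap in each line, by 0.79, 0.72 and 0.71 in total. SAMD9 stood at 12.4, 13.3 and 14.2 CPM at day −2, 16.6, 14.96 and 15.7 at day 0 and 24.2, 18.99 and 21.6 at day +2 in the control. For SAMD9, MMP2sh1 gave 17.3, 15.4 and 16.04 CPM at day −2, 17.3, 16.7 and 17.4 at day 0 and 23.2, 23.4 and 23.9 at day +2. MMP2sh2 gave 10.1, 11.3 and 10.5 CPM of SAMD9 at day −2, 14.7, 10.7 and 13.4 at day 0 and 20.6, 21.999 and 21.04 at day +2. SAMD9 rose by 0.71 ± 0.10 in the control, 0.53 ± 0.09 in MMP2sh1 and 1.00 ± 0.10 in MMP2sh2, and its neighbour on chromosome 7, SAMD9L, by 0.84, 1.14 and 1.20. CMPK2 stood at 1.71, 1.33 and 1.52 CPM at day −2, 2.19, 1.29 and 1.66 at day 0 and 2.16, 1.79 and 1.91 at day +2 in the control. For CMPK2, MMP2sh1 gave 2.73, 2.67 and 1.88 CPM at day −2, 1.93, 1.97 and 2.17 at day 0 and 1.06, 1.48 and 1.37 at day +2. MMP2sh2 gave 2.63, 1.32 and 2.55 CPM of CMPK2 at day −2, 1.68, 2.18 and 1.93 at day 0 and 1.62, 0.776 and 1.16 at day +2. CMPK2, a mitochondrial nucleotide kinase whose gene lies beside RSAD2, was the exception. It fell in MMP2sh1, at −0.90 ± 0.30 (adjusted p = 0.0127) and in MMP2sh2, at −0.86 ± 0.34 (adjusted p = 0.0315), while the control was at 0.36 ± 0.28 (adjusted p = 0.279).

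The ADP-ribosyltransferase genes PARP9 and PARP14 rose modestly from high levels. PARP14 stood at 81.1, 77.3 and 79.997 CPM at day −2, 88.7, 86.1 and 84.5 at day 0 and 111, 109 and 103 at day +2 in the control. For PARP14, MMP2sh1 gave 74.2, 79.2 and 72.6 CPM at day −2, 78.3, 79.9 and 78.4 at day 0 and 102, 113 and 113 at day +2. MMP2sh2 gave 72.7, 72.2 and 69.2 CPM of PARP14 at day −2, 77.8, 80.6 and 83.4 at day 0 and 121, 112 and 117 at day +2. Day +2 was the highest day in each line, and the log2 fold change of PARP14 was 0.44 ± 0.05 in the control, 0.53 ± 0.07 in MMP2sh1 and 0.72 ± 0.06 in MMP2sh2. PARP9 stood at 35.3, 38.9 and 40.9 CPM at day −2, 37.2, 38.4 and 40.5 at day 0 and 54.8, 53.5 and 53.9 at day +2 in the control. For PARP9, MMP2sh1 gave 36.7, 34.2 and 33.6 CPM at day −2, 34.5, 32.5 and 31.6 at day 0 and 45.2, 46.5 and 47.3 at day +2. MMP2sh2 gave 34.7, 37.3 and 30.5 CPM of PARP9 at day −2, 40.2, 30.8 and 39.7 at day 0 and 56.9, 54.8 and 55.03 at day +2. PARP9 rose by 0.50 ± 0.06 in the control, 0.41 ± 0.07 in MMP2sh1 and 0.71 ± 0.08 in MMP2sh2. In both genes day +2 lay above day 0 without overlap in each line.

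Of the remaining induced genes, IFI44, IFI44L and IFI6 rose in all 3 lines. IFI44 stood at 9.95, 9.88 and 11.96 CPM at day −2, 18.04, 14.8 and 19.1 at day 0 and 25.9, 30.6 and 32.7 at day +2 in the control. For IFI44, MMP2sh1 gave 8.69, 11.04 and 9.54 CPM at day −2, 22.8, 20.9 and 20.3 at day 0 and 34.8, 32.4 and 30.8 at day +2. MMP2sh2 gave 9.57, 11.8 and 12.7 CPM of IFI44 at day −2, 18.3, 16.7 and 15.7 at day 0 and 27.2, 27.6 and 31.6 at day +2. IFI44 increased at both steps in each line with no overlap between days. Its log2 fold change was 1.502 ± 0.10 in the control, 1.74 ± 0.10 in MMP2sh1 and 1.35 ± 0.11 in MMP2sh2 (adjusted p = 7.77e-13, 1.29e-12 and 1.76e-12). IFI44L stood at 1.35, 0.995 and 0.936 CPM at day −2, 2.23, 1.63 and 2.096 at day 0 and 4.63, 2.94 and 2.54 at day +2 in the control. For IFI44L, MMP2sh1 gave 0.649, 2.07 and 1.61 CPM at day −2, 3.87, 2.98 and 3.27 at day 0 and 4.84, 3.48 and 3.98 at day +2. MMP2sh2 gave 0.843, 1.32 and 0.425 CPM of IFI44L at day −2, 0.783, 0.895 and 1.09 at day 0 and 2.54, 2.68 and 2.05 at day +2. IFI44L, the neighbour of IFI44 on chromosome 1, rose by 1.60 ± 0.28 in the control, 1.48 ± 0.30 in MMP2sh1 and 1.47 ± 0.34 in MMP2sh2, at 15 to 234 reads per library. IFI6 stood at 20.5, 19.7 and 18.4 CPM at day −2, 22.2, 20.05 and 20.6 at day 0 and 35.9, 38.8 and 37.7 at day +2 in the control. For IFI6, MMP2sh1 gave 23.999, 22.2 and 21.4 CPM at day −2, 19.5, 19.6 and 21.1 at day 0 and 33.6, 26.9 and 29.5 at day +2. MMP2sh2 gave 21.01, 20.8 and 26.2 CPM of IFI6 at day −2, 24.5, 25.4 and 27.7 at day 0 and 34.3, 29.4 and 32.4 at day +2. IFI6 rose by 0.94 ± 0.07 in the control, 0.41 ± 0.09 in MMP2sh1 and 0.51 ± 0.09 in MMP2sh2. IFI27, at 1.16 ± 0.44 (adjusted p = 0.0271), and IFI35, at 1.70 ± 0.68 (adjusted p = 0.0364), were called in the control, and neither was called in MMP2sh1. In MMP2sh2 IFI27 was not called and IFI35 was not tested.

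**Figure D2:**
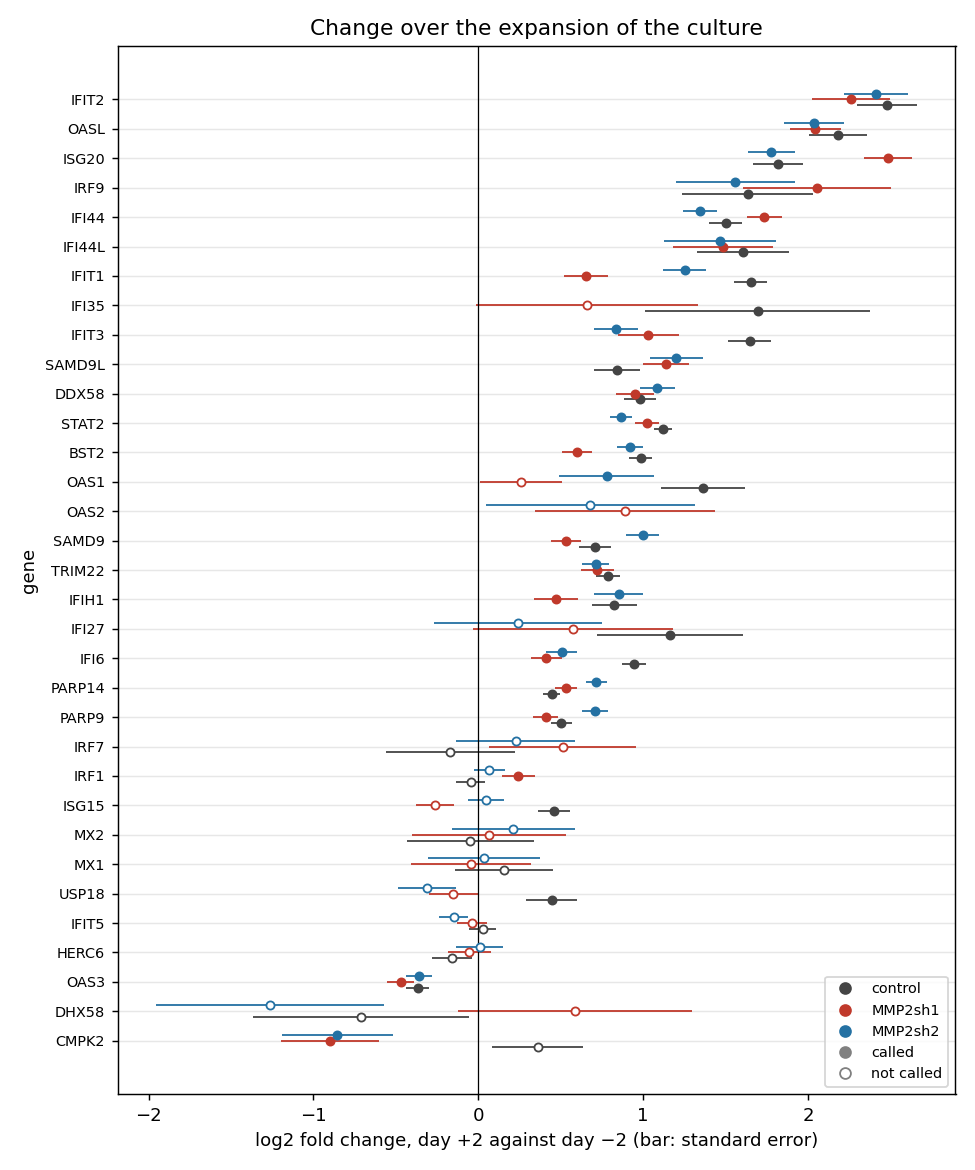
Log2 fold change of each tested interferon-stimulated gene from day −2 to day +2 (horizontal axis, bars show the standard error) in the control, MMP2sh1 and MMP2sh2, with filled points for an adjusted p under 0.05. IFIT2 and OASL lie near the top in all 3 lines, at 2.04 to 2.48, and OAS3 lies below 0 in each.

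More members rose after confluence than before it, counted as genes whose libraries did not overlap between days. These counts do not measure the size of each step, and some genes, such as IFIT1 in the control, rose more before confluence. Among the 29 members with a mean of at least 1 CPM, 12 had all 3 control libraries of day 0 above all 3 of day −2, beside 23.8% of 15136 genes at that level, and 20 had all of day +2 above all of day 0, beside 26.3%. In MMP2sh1 the counts were 7 (background 23.8%) before and 16 (28.4%) after confluence, and in MMP2sh2 7 (23.5%) and 19 (26.5%). STAT2, IRF9, IFIT1, TRIM22 and IFI44 stood higher at day 0 than at day −2 in all 3 lines. In the other direction 3 members were lower at day 0 than at day −2 in the control (28.4% of genes), 4 in MMP2sh1 (26.8%) and 2 in MMP2sh2 (24.0%), IRF1 and OAS3 in each. From day 0 to day +2 only OAS3 of these members was lower in the control (30.3%), MX2 and CMPK2 in MMP2sh1 (32.2%), and USP18 and CMPK2 in MMP2sh2 (33.1%).

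The genes of interferon itself were at or near 0 at every day. IFNB1, the first interferon gene that most cells induce, had 0 to 4 reads per library, IFNE 0 to 9, IFNK and IFNL1 0 to 4 each, IFNA1 and IFNL3 0 to 1 each, and IFNA2, IFNG and IFNL2 had 0 in every library. None of the 9 had enough reads for a test. CXCL10, a chemokine gene strongly induced by interferon, had at most 4 reads. These reads measure RNA in the cells and do not measure interferon protein or the serum in the medium.

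The other genes of the pathway moved in both directions. Of 43 such genes (ligands, receptors, kinases and STAT proteins, sensors and adaptors, factors upstream of interferon, and genes that restrain the response) 31 were tested. From day −2 to day +2 the control had 11 that rose and 10 that fell, MMP2sh1 12 and 7, and MMP2sh2 12 and 9, with medians of 0.03, 0.12 and 0.10. These are 35.5% and 32.3% of the tested genes in the control, 38.7% and 22.6% in MMP2sh1 and 38.7% and 29.0% in MMP2sh2, beside the 27.3% to 28.1% of all genes that rose and 27.1% to 28.6% that fell. Of the receptor genes, IFNAR2 rose by 0.77 ± 0.11 in the control, 0.79 ± 0.11 in MMP2sh1 and 0.79 ± 0.11 in MMP2sh2 and IFNGR2 by 1.10 ± 0.06 in the control, 0.76 ± 0.07 in MMP2sh1 and 0.55 ± 0.07 in MMP2sh2, while IFNLR1, the receptor chain for lambda interferons, fell, at −0.71 ± 0.19 in the control, −0.88 ± 0.22 in MMP2sh1 and −0.78 ± 0.19 in MMP2sh2. Of the kinases, JAK2 was called in the control alone, at −0.37 ± 0.14. TYK2 fell slightly in all 3 lines, at −0.23, −0.22 and −0.26. Of the sensors and adaptors, TMEM173 (STING, the adaptor for DNA in the cytoplasm) rose by 1.07 ± 0.16 in the control, 0.89 ± 0.19 in MMP2sh1 and 0.80 ± 0.14 in MMP2sh2 and TLR9, at 0 to 62 reads, by 3.19, 3.36 and 3.11. TRIM25, a ligase that helps to activate RIG-I, fell, at −0.58, −0.79 and −0.78. SOCS3, a feedback inhibitor of JAK signalling, rose by 0.54, 0.47 and 0.35.

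A further 45 interferon-induced genes outside the list held more genes that rose than fell. In the control 21 of 37 tested rose and 7 fell, in MMP2sh1 17 of 40 rose and 7 fell, and in MMP2sh2 21 of 38 rose and 7 fell, with medians of 0.30, 0.21 and 0.26. The shares that rose were 56.8%, 42.5% and 55.3% and those that fell 18.9%, 17.5% and 18.4%, beside the same 27.3% to 28.1% and 27.1% to 28.6% of all genes. UBA7 and UBE2L6, the enzymes that activate ISG15 and carry it to its ligase, rose by 1.16, 0.89 and 0.92 and by 1.10, 0.90 and 0.74 in the control, MMP2sh1 and MMP2sh2, whereas ISG15 was called in the control alone. The sensor helicase gene DDX60 rose by 1.23, 1.34 and 1.27, and its paralog DDX60L fell, at −1.47, −1.47 and −1.22. IFI16, a sensor of DNA, rose by 0.91, 1.02 and 1.01, and TRIM14 fell, at −0.94, −1.10 and −1.09. The genes named from these further lists were picked after their values were seen.

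The second comparison asked whether the hairpin lines held more RNA of the interferon-stimulated genes than the vector control. No rise across the list was seen in either line. Over all 3 days, 5 of 34 tested genes were higher and 6 lower in MMP2sh1 than in the control, beside 10.7% of all genes higher and 9.4% lower (20.1% called). In MMP2sh2 0 of 34 were higher and 3 lower, beside 5.97% and 5.63% of all genes (11.6% called). At an unadjusted p under 0.05, 2 genes were higher in MMP2sh2, and DESeq2 called 0 higher. The median log2 fold change was −0.08 in MMP2sh1 and −0.01 in MMP2sh2, with 0.01 and 0.00 over all genes. The only gene that was called with the same sign in both lines was IFIT1, which was lower. Its call in MMP2sh2 was lost in 2 of 6 fits that left out a replicate. IFI44L and SAMD9 were called with opposite signs, higher in MMP2sh1 and lower in MMP2sh2. In MMP2sh2 these calls were lost in 3 and 5 of 6 fits that left out a replicate. Both comparisons share the control libraries. The share of all genes called in both lines, with the same or opposite signs, was not computed, so these calls have no background.

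In MMP2sh1 IFIT1, IFIT2, IFIT3 and TRIM22 were lower, while IFIT5 was at −0.04 and was not called. IFIT3 differed from the control by a log2 fold change of −0.47 ± 0.11 (adjusted p = 0.00183), IFIT1 by −0.46 ± 0.11 (adjusted p = 0.0025) and IFIT2 by −0.44 ± 0.14 (adjusted p = 0.0273). TRIM22 was at −0.43 ± 0.05 (adjusted p = 1.62e-07), and at each day the 3 MMP2sh1 libraries lay below the 3 control libraries. STAT2 at −0.22 ± 0.04 and PARP9 at −0.19 ± 0.04 were lower by a smaller amount. The genes that were higher in MMP2sh1 were OAS1 at 0.58 ± 0.16 (adjusted p = 0.0106), IFI44L at 0.49 ± 0.17, OASL at 0.28 ± 0.10, HERC6 at 0.19 ± 0.07 and SAMD9 at 0.18 ± 0.05. OAS1 was higher at days −2 and 0 without overlap, and at day +2 the lines overlapped. Without the replicate 2 libraries of the control (3 libraries, 1 per day) 6 genes were called, 0 of them higher, and without those of MMP2sh1 2 were higher and 5 lower. The calls on IFIT3, IFIT1 and TRIM22 held whichever replicate was left out, with log2 fold changes of −0.55 to −0.34, −0.50 to −0.42 and −0.45 to −0.41. The call on OAS1 was lost without replicate 2 of the control, that on IFI44L without replicate 2 or 3 of either line, and that on IFIT2 without replicate 2 of MMP2sh1 or any replicate of the control (0.48 to 0.67, 0.39 to 0.68 and −0.56 to −0.33 over all such fits).

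In MMP2sh2, which kept more MMP2, the called differences were few and were all lower. They were IFI44L at −0.63 ± 0.19 (adjusted p = 0.0244), IFIT1 at −0.29 ± 0.08 (adjusted p = 0.0103) and SAMD9 at −0.20 ± 0.07 (adjusted p = 0.038). Without replicate 1 of the control 0 genes were called, and without replicate 1, 2 or 3 of MMP2sh2 1 was called each time. Over all 6 fits that left out a replicate, the log2 fold change was −0.79 to −0.44 for IFI44L, −0.33 to −0.24 for IFIT1 and −0.24 to −0.18 for SAMD9. The call was lost in 3 of these 6 fits for IFI44L, in 2 for IFIT1 and in 5 for SAMD9. IFIT3 was at 0.26 ± 0.10 and IFIT2 at 0.19 ± 0.13 in MMP2sh2, neither called, where both were lower in MMP2sh1. IFI44L, at 15 to 234 reads, was called in both lines. Of the other members at low counts, MX1, IFI27, IRF7, OAS2 and RSAD2 gave no call in either line, and their values were spread widely. MX1 was at −0.20 ± 0.18 and −0.37 ± 0.19, IFI27 at −0.40 ± 0.29 and −0.02 ± 0.27, and IRF7 at −0.20 ± 0.24 and 0.04 ± 0.22 in MMP2sh1 and MMP2sh2. OAS2 was at 1.18 ± 0.47 in MMP2sh1 (adjusted p = 0.0809) and 0.39 ± 0.49 in MMP2sh2, and RSAD2 at −1.78 ± 0.80 (adjusted p = 0.124) and 0.33 ± 0.70.

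**Figure D3:**
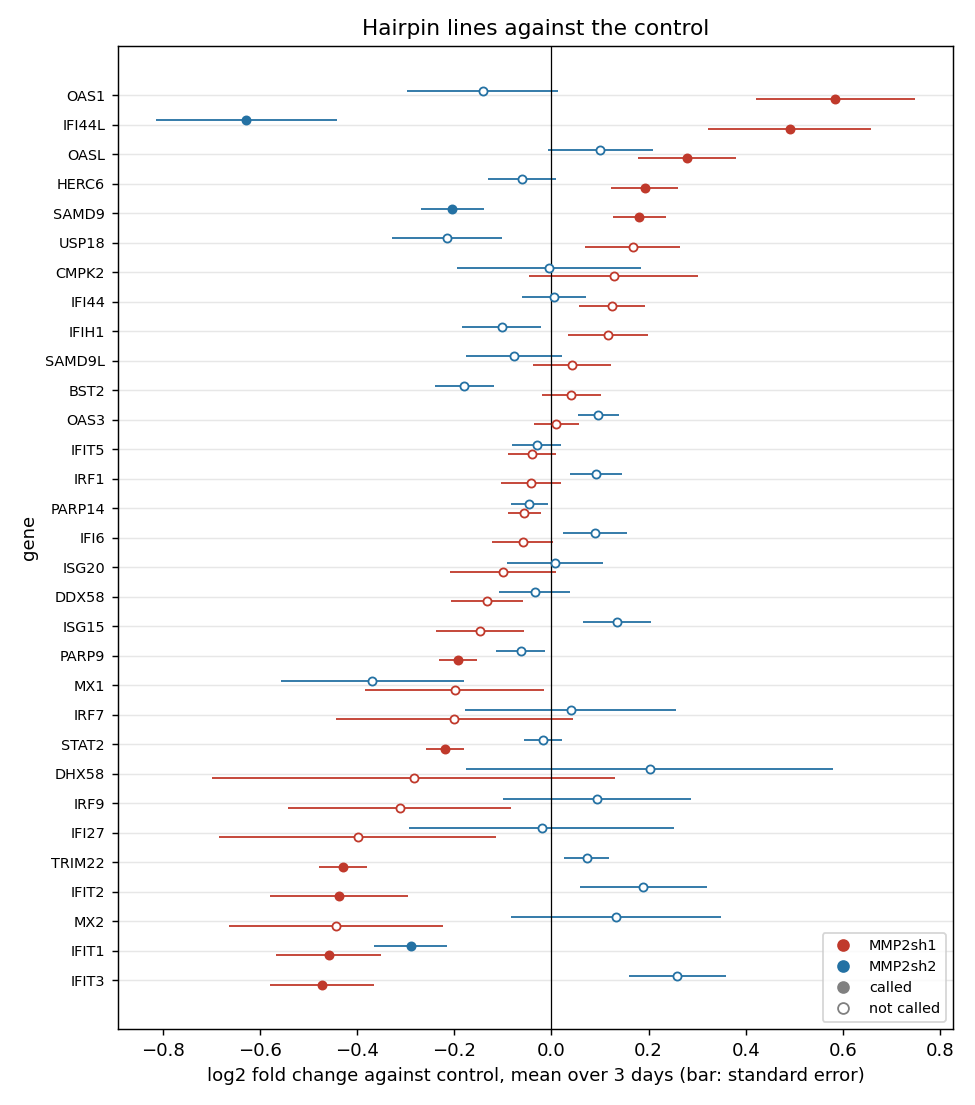
Log2 fold change of 31 interferon-stimulated genes in MMP2sh1 and MMP2sh2 against the vector control over all 3 days (horizontal axis, bars show the standard error), with filled points for an adjusted p under 0.05. The points lie on both sides of 0, from OAS1 at 0.58 to IFIT3 at −0.47 among the MMP2sh1 calls, and RSAD2, OAS2 and IFI35, with 0 reads in some libraries, are not drawn.

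Day by day the called differences from the control were also in both directions or downward. In MMP2sh1 at day −2, 1 gene was higher (5.42% of all genes) and 1 lower (6.14%), with 11.6% of all genes called. These were OAS1 at 1.00 ± 0.29 and TRIM22 at −0.37 ± 0.10. At an unadjusted p under 0.05, 8 of the 32 were higher and 1 lower, while the median of the 32 was −0.06. Besides OAS1, the higher genes were OAS2 at 2.37 ± 0.87, CMPK2 at 0.67 ± 0.27, USP18 at 0.42 ± 0.15, IFIH1 at 0.41 ± 0.15, SAMD9 at 0.29 ± 0.10, BST2 at 0.21 ± 0.09 and IFI6 at 0.20 ± 0.09, with adjusted p from 0.0673 for SAMD9 to 0.158 for IFI6. In the adjusted test 0 genes were called without replicate 3 of MMP2sh1 and 1 without replicate 1, 2 or 3 of the control. At day 0, 3 of 32 were higher (8.26%) and 5 lower (8.58%), with 16.8% of all genes called. The higher ones were OAS1 at 0.89 ± 0.25, IFI44L at 0.77 ± 0.22 and IFI44 at 0.30 ± 0.09, and the lower ones IFIT1 at −0.67 ± 0.10, TRIM22 at −0.52 ± 0.08, DDX58 at −0.45 ± 0.11, STAT2 at −0.34 ± 0.06 and PARP9 at −0.24 ± 0.07. At day +2, 0 of 34 were higher (7.68%) and 8 lower (7.11%), with 14.8% of all genes called, where 3 were higher at an unadjusted p under 0.05 and DESeq2 called 0 higher and 8 lower. The lower genes included IFIT1 at −0.82 ± 0.10 (adjusted p = 3.14e-07), IFIT3 at −0.78 ± 0.12 (adjusted p = 2.23e-05), ISG15 at −0.52 ± 0.11 and IFI6 at −0.32 ± 0.08. In IFIT1 and IFIT3 the 3 MMP2sh1 libraries of day +2 lay below all 3 control libraries. Without replicate 2 of MMP2sh1 4 genes were called at day +2.

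In MMP2sh2 at day −2, 1 of 31 was higher (4.71% of all genes) and 1 lower (6.33%), with 11.0% of all genes called, IFIT3 at 0.61 ± 0.16 and BST2 at −0.30 ± 0.08. Without replicate 1 of the control or replicate 2 of MMP2sh2 0 were called, and without replicate 3 of the control 1. At day 0, IFI6 was higher, at 0.29 ± 0.08 (1 of 31, beside 7.07%), and IFI44L at −1.12 ± 0.32, DDX58 at −0.39 ± 0.11 and IFIT1 at −0.33 ± 0.10 were lower (3 of 31, beside 5.81%), with 12.9% of all genes called. The count of 4 fell to 2 without replicate 1 of the control and to 1 without replicate 2 of MMP2sh2. At day +2, 0 of 34 were higher (2.89%) and 3 lower (3.43%), with 6.32% of all genes called, USP18 at −0.78 ± 0.16, IFIT1 at −0.46 ± 0.10 and BST2 at −0.36 ± 0.07. There 1 was higher at an unadjusted p under 0.05 and DESeq2 called 0 higher. IFIT1 was thus lower than in the control at days 0 and +2 in both hairpin lines.

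**Figure D4:**
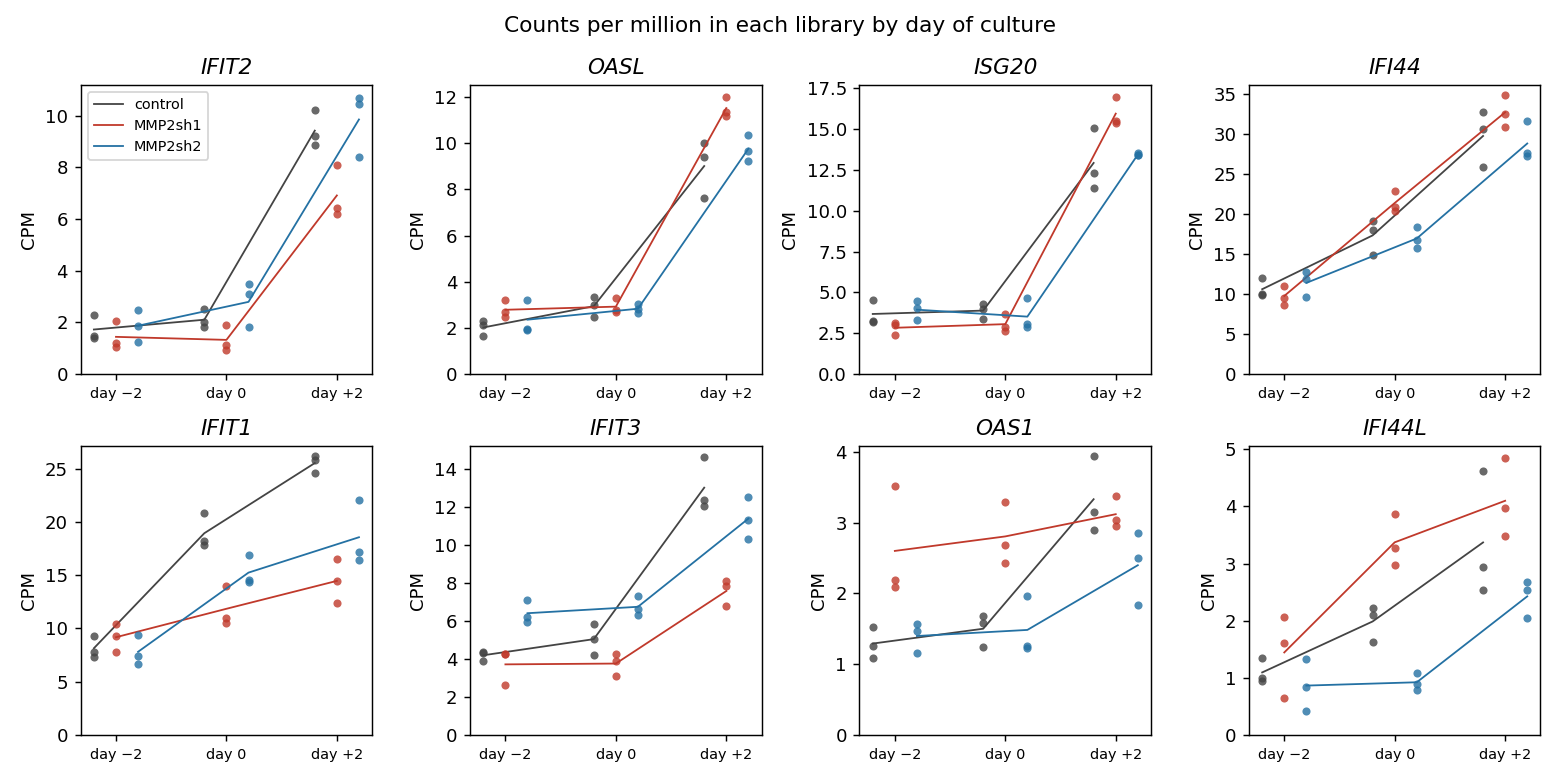
CPM in each library (points) and the mean of 3 libraries (lines) of 8 interferon-stimulated genes by day of culture in the control, MMP2sh1 and MMP2sh2. IFIT2, OASL and ISG20 rise after day 0 in all 3 lines, IFIT1 is highest in the control at days 0 and +2, and OAS1 in MMP2sh1 is already at 2.09 to 3.52 at day −2.

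The other genes of the pathway were also compared between the hairpin lines and the control. Of the 31 other pathway genes tested over all 3 days, 3 were higher and 2 lower in MMP2sh1, and 0 higher and 1 lower in MMP2sh2, where 4 were higher at an unadjusted p under 0.05 and DESeq2 called 2 higher. These are 9.68% higher and 6.45% lower in MMP2sh1, beside 10.7% and 9.4% of all genes, and 0 and 3.23% in MMP2sh2, beside 5.97% and 5.63%. The higher genes in MMP2sh1 were IKBKE at 0.23 ± 0.06, TRAF3 at 0.14 ± 0.04 and JAK1 at 0.12 ± 0.03. SOCS3 was lower in both lines, at −0.31 ± 0.04 in MMP2sh1 and −0.17 ± 0.05 in MMP2sh2. Of the 45 further interferon-induced genes, 4 of 42 were higher (9.52%) and 8 lower (19.0%) in MMP2sh1, and 2 of 41 were higher (4.88%) and 1 lower (2.44%) in MMP2sh2, beside the same shares of all genes.

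The hairpin lines were then compared with each other, which does not use the control libraries. At day −2, 4 of 32 genes were higher in MMP2sh1 (5.01% of all genes) and 3 lower (5.69%), where 10.7% of all genes were called. Without replicate 1 or 2 of MMP2sh1 or replicate 2 of MMP2sh2 4 genes were called. At day 0, 4 of 32 were higher (8.9%) and 8 lower (9.62%), where 18.5% of all genes were called. IFI44L was higher in MMP2sh1 by 1.89 ± 0.26 (adjusted p = 1e-06) and OAS1 by 0.92 ± 0.26 (adjusted p = 0.00943), and IFIT2 was lower, at −1.03 ± 0.29 (adjusted p = 0.0092). The calls on IFIT2 and OAS1 were lost without replicate 3 of MMP2sh1 or replicate 1 of MMP2sh2, with log2 fold changes of −1.43 to −0.84 and 0.79 to 1.18 over all fits that left out a library. At day +2, 2 of 33 were higher (4.59%) and 5 lower (3.27%), where 7.86% of all genes were called. Without replicate 2 of MMP2sh1 4 were called and without replicate 1 of MMP2sh2 3. IFIT3 and TRIM22 were lower in MMP2sh1 than in MMP2sh2 at all 3 days, IFIT3 at −0.80, −0.83 and −0.59 and TRIM22 at −0.54, −0.46 and −0.52 on the log2 scale. SAMD9 was higher in MMP2sh1 at days −2 and 0, by 0.60 and 0.42.

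The last comparison asked whether the change from day −2 to day +2 itself differed from that of the control, by the interaction of line and day. It did so for 6 of 34 genes in MMP2sh1, 1 with a larger (4.52% of all genes) and 5 with a smaller (2.88%) log2 fold change than the control, where 7.4% of all genes were called. IFIT1 rose less in MMP2sh1, with a difference of −0.99 ± 0.17 (adjusted p = 0.000235), and ISG15 differed by −0.72 ± 0.15 (adjusted p = 0.00303). Both calls held whichever replicate was left out. CMPK2 at −1.25 ± 0.38, OAS1 at −1.10 ± 0.35 and IFI6 at −0.52 ± 0.12 also had the lower log2 fold change in MMP2sh1. For CMPK2 this was a called fall in MMP2sh1, where the control was not called. ISG20 had the higher log2 fold change, by 0.68 ± 0.21. The count fell to 3, 3 and 2 without replicate 1, 2 or 3 of the control. OAS1 lost its call without any of these or without replicate 3 of MMP2sh1 (−1.29 to −0.80), and CMPK2 without any of these or without replicate 1 or 2 of MMP2sh1 (−1.46 to −1.03). In MMP2sh2 4 of 34 differed, 1 with a larger (2.71%) and 3 with a smaller (2.28%) log2 fold change, where 4.98% of all genes were called. IFIT3 rose less, with a difference of −0.81 ± 0.18 (adjusted p = 0.00515), from a higher level at day −2, and USP18 was at −0.76 ± 0.23, IFI6 at −0.44 ± 0.12 and PARP14 at 0.27 ± 0.08. The count fell to 2, 2 and 1 without replicate 1, 2 or 3 of the control, to 0 without replicate 2 of MMP2sh2 and to 2 without its replicate 3. Over these fits the differences were −0.94 to −0.67 for IFIT3, −0.91 to −0.58 for USP18, −0.54 to −0.33 for IFI6 and 0.24 to 0.31 for PARP14, whose call was lost in every one. IFI6 was the only gene called in both hairpin lines, with a smaller rise than the control in each, but its call in MMP2sh2 was lost without replicate 2 or 3 of either line (−0.44 to −0.33 in those 4 fits). Both tests share the control libraries, and the share of all genes called in both was not computed.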

How the data were processed

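Polyadenylated RNA of the 27 U2OS libraries was sequenced as paired reads from an unstranded kit. The authors removed adapters (Trim Galore 0.6.0), mapped the reads to hg19 (STAR 2.7.3a), dropped poor alignments (Samtools) and counted the rest on exons without strand (HTSeq 2.0.0), so that reads of overlapping or antisense genes cannot be separated. The deposited counts are whole reads for each gene symbol, not normalized, and the 5 summary lines that name no gene (16.8% to 19.1% of counted reads) stayed out of library sizes and tests.

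Groups were taken from the sample labels. For each comparison, edgeR 4.0.16 (R 4.3.3) was run on the libraries of that comparison alone (TMM scaling, filterByExpr with minimum count 10 and minimum total 15, quasi-likelihood test, Benjamini-Hochberg adjustment over all genes tested), and an adjusted p under 0.05 was called. Fits over all 3 days used 18 libraries with day as a covariate, and the interaction of line and day used 12 libraries. The standard error is the size of the log2 fold change divided by the square root of F. CPM values use TMM factors of all 27 libraries. On simulated counts with 200 genes changed 2-fold, 92.5% were recovered for MMP2sh1 against control at day 0 (19404 genes tested), 99.5% over all 3 days (21283) and 79% for the interaction (20423).

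All 27 pairs of replicates differed by more than sampling noise. The alternatives were DESeq2 1.42.0, median-of-ratios scaling, no filter, at least 10 counts in every library, all 27 libraries in 1 fit, the replicate number as a block, and each replicate left out. Values in every library are given for up to 6 members with the largest called change in each hairpin line and over the expansion, up to 4 in each interaction, the 4 of highest CPM, and 3 between hairpin lines. Members and gene lists were chosen with earlier results of these data known, and 2 genes of the pathway lists are not reported here. Gene positions are from GENCODE on GRCh37 and promoter windows from RefSeq.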

Additional observations from a re-analysis of the deposited data

Results flagged for a closer look

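For 9 interferon-stimulated genes the change from day −2 to day +2 differed between a hairpin line and the control by the test of the interaction of line and day (edgeR, 12 libraries, adjusted p under 0.05). In MMP2sh1 the log2 fold change less that of the control was −0.99 for IFIT1, −1.10 for OAS1, −0.72 for ISG15, −1.25 for CMPK2, −0.52 for IFI6 and 0.68 for ISG20. In MMP2sh2 it was −0.81 for IFIT3, −0.76 for USP18, −0.44 for IFI6 and 0.27 for PARP14. IFI6 was called in both lines, which share the control libraries, and lost its call in MMP2sh2 in 4 of 6 fits that left out a replicate. At day −2 OAS1 was called higher in MMP2sh1 than in the control (means 2.60 and 1.29 CPM) and IFIT3 higher in MMP2sh2 (6.40 and 4.19 CPM), while CMPK2, with means of 2.43 in MMP2sh1 and 1.52 in the control, was not called.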

How the results depend on the processing

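The counts of members called over the expansion in each line stayed within 1.5 times of the value given under every alternative, at 22 to 24 in the control, 20 to 22 in MMP2sh1 and 19 to 21 in MMP2sh2 when a replicate was left out. The fold changes of the genes given in every library, each in the comparison that picked it, kept their direction under every alternative run. The other fold changes were not checked in this way. With all 27 libraries in 1 fit, 4 members were called for MMP2sh1 against the control at day −2 in place of 2, and 5 for MMP2sh2 over all 3 days in place of 3. For the difference of expansion in MMP2sh2, 2 were called without a filter and 2 with a replicate block, in place of 4. The causes were not tested. Apart from this count, the replicate block moved no count of calls by more than 1.5 times. The replicate numbers did not pair the libraries, since same-numbered libraries of the same day correlated at −0.025 to 0.036 in their deviations from the group means (27 pairs, median −0.002), 0 of them over 0.1. Among the genes named, the differences of expansion of CMPK2 and OAS1 (MMP2sh1) and of USP18 and PARP14 (MMP2sh2) lost their call both without a filter and with the block, and PARP14 also with median-of-ratios scaling. Leaving out each replicate in turn gave 0 to 3, 7 to 8 and 4 to 9 calls for MMP2sh1 against the control at days −2, 0 and +2 and 6 to 8 over all 3 days. The same gave 0 to 3, 1 to 4 and 3 calls for MMP2sh2 by day and 0 to 4 over all 3 days. Between the hairpin lines it gave 4 to 6, 9 to 11 and 3 to 7 calls by day, and for the differences of expansion 2 to 6 in MMP2sh1 and 0 to 4 in MMP2sh2. Each such fit leaves 2 libraries in a group of 1 line and day, so fewer calls follow in part from fewer samples. Low counts limit HERC5, EPSTI1, XAF1, RSAD2, OAS2, IFI35, DHX58 and IFI27, for which a change was not detectable at this depth unless it was large.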
